A study of Homo sapiens with 8 samples.

Results

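The genes that encode the proteins of the cytosolic ribosome were examined for RUNX1 peaks in HEL, a human erythroleukemia cell line. They were chosen by symbol, as the protein-coding genes named RPL or RPS with a number, the stalk genes RPLP0, RPLP1 and RPLP2, and RPSA, without the RPS6K kinases and without pseudogenes. This gave 82 of the 20037 protein-coding genes of the RefSeq table. A gene was described by the peaks within 10 kb of either of its ends.

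Peaks came from CUT&RUN, in which a nuclease tethered to an antibody cuts out the DNA around the bound protein inside permeabilized cells, and those fragments are sequenced. The 3 lines with peak lists expressed HA-tagged RUNX1-4D, RUNX1-4A or wild-type RUNX1 (WT), and a 4th line with an empty vector served as the background for calling, per the series design. In mutants named this way, D usually stands for aspartate, which resembles a phosphorylated residue, and A for alanine, which cannot be phosphorylated; the residues are not named in the labels. Each line had 2 biological replicates of 500000 cells, and all were transduced HEL cells kept in puromycin (2 µg/ml), opened with 0.01% digitonin and stained with an anti-HA antibody. The antibody sees the introduced protein only, and endogenous RUNX1 was not measured.

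RUNX1 is a transcription factor of blood cells that binds a short core sequence, TGTGGT or TGCGGT, often beside ETS family factors. Sites of ETS factors hold GGAA, and only the longer form CCGGAAG was counted here, under the name ETS core. Each ribosomal protein gene encodes a protein of the large or the small ribosomal subunit, and nearly all are transcribed in every dividing cell from short promoters. Their messenger RNAs begin with a C followed by pyrimidines, the terminal oligopyrimidine tract through which growth signalling controls their translation. Loss of 1 copy of many of these genes causes Diamond-Blackfan anaemia, a failure of red cell production.

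The promoters of 65 of the 82 genes matched the RefSeq promoter table (GRCh38.p14), which covers 250 bases before and 50 after the start site. The following 7 stretches are the 250 bases before the start site, 5′ to 3′ on the gene's strand. They are examples with peak summits in or beside them, and other promoters with summits are not shown. RPS3A, RPL18 and RPL11 held a RUNX core within 50 bp of the strongest summit of their region, not of every library's summit. RPS18 held a RUNX core beside an ETS core, RPS6 held an ETS core alone and RPL36AL held neither. MICOS13, which encodes a mitochondrial protein and neighbours RPL36, is the start site under the strongest region at RPL36. Capitals mark matches, on either strand, to the RUNX cores TGTGGT and TGCGGT and to the ETS core CCGGAAG.
RPS3A, chr4:151099378-151099627, plus strand: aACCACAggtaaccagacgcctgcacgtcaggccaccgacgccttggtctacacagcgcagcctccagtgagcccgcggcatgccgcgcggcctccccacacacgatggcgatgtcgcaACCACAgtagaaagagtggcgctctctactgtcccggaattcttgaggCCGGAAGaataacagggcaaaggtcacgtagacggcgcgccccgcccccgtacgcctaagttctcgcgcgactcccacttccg
RPL18, chr19:48619179-48619428, minus strand: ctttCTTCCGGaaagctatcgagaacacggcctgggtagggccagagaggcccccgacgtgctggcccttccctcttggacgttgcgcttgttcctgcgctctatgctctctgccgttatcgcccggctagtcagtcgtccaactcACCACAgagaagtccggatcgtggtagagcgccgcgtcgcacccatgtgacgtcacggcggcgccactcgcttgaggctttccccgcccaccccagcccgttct
RPL11, chr1:23691529-23691778, plus strand: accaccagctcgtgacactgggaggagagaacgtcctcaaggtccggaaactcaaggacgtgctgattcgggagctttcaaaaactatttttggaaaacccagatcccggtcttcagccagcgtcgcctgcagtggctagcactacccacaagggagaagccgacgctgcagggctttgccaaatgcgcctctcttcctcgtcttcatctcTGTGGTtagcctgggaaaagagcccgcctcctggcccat
RPS18, chr6:33271825-33272074, plus strand: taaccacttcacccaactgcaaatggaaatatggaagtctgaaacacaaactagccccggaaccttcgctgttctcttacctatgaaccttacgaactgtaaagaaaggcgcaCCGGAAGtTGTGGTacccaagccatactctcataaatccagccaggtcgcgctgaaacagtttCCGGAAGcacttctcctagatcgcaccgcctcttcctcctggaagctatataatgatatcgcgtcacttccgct
RPS6, chr9:19380237-19380486, minus strand: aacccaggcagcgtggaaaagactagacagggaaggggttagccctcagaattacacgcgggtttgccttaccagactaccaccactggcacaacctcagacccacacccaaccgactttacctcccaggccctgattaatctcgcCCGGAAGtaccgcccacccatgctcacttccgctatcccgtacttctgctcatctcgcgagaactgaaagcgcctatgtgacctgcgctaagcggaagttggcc
RPL36AL, chr14:49620627-49620876, minus strand: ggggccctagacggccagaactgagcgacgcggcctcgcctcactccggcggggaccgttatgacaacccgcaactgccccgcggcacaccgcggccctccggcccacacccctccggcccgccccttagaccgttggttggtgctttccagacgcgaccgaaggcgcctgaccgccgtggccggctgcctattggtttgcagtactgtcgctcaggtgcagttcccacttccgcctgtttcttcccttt
MICOS13, chr19:5680517-5680766, minus strand: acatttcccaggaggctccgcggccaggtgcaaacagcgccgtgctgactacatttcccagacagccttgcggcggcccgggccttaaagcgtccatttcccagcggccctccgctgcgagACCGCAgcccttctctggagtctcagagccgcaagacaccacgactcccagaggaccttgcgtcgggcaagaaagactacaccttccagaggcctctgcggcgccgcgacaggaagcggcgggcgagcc

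In every library the share of ribosomal protein genes with a peak was above that of all genes, though within counting error in most. The mean counts of the lines lay closer together than the replicates of each line. In the 4D line, 17 of 82 genes had a peak within 10 kb in replicate 1 and 47 in replicate 2, against 20.1% and 50.1% of all protein-coding genes. These counts are 20.7% (95% Wilson interval 13.4 to 30.7) and 57.3% (46.5 to 67.5) of the genes. In the 4A line the counts were 23 and 52, or 28.0% (19.5 to 38.6) and 63.4% (52.6 to 73.0), against 22.5% and 54.8% of all genes. In the WT line they were 27 and 55, or 32.9% (23.7 to 43.7) and 67.1% (56.3 to 76.3), against 26.2% and 54.9%. The share of all genes lay within the interval in every library except replicate 2 of WT, where it was below it. The intervals cover counting error only. Ribosomal protein genes had a median length of 5.01 kb, against 24.1 kb for all genes, and the part of gene length in these shares was not tested.

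The replicates differed more than the lines. The mean number of genes with a peak was 32 ± 21.2 in 4D, 37.5 ± 20.5 in 4A and 41 ± 19.8 in WT (SD, n = 2 each). An exact permutation test of these counts over the 3 lines gave p = 0.667, with 0.0667 the smallest value that 2 libraries a line allow. With replicate number taken as a block, the exact permutation test gave p = 0.167, the smallest value it allows, so neither form could pass 0.05. The lists themselves were unequal in length, with 5358 peaks in replicate 1 and 21122 in replicate 2 of 4D, 6266 and 24251 in 4A, and 6764 and 25911 in WT. Read depth is unknown, because the lists carry no read totals, and absence from a list does not show that a gene was unbound. Within replicate 1 and within replicate 2, 4D had the fewest of these genes and WT the most, the same order as the list lengths. With the 3 lists of each replicate number shortened to equal length, the order did not hold: replicate 1 had 17 genes in 4D, 20 in 4A and 19 in WT, and replicate 2 had 47 in 4D, 46 in 4A and 43 in WT. In the same order these were 20.7%, 24.4% and 23.2% in replicate 1, against 20.1%, 19.8% and 21.4% of all genes. In replicate 2 they were 57.3%, 56.1% and 52.4%, against 50.1%, 51.0% and 49.5% of all genes.

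**Figure D1:**
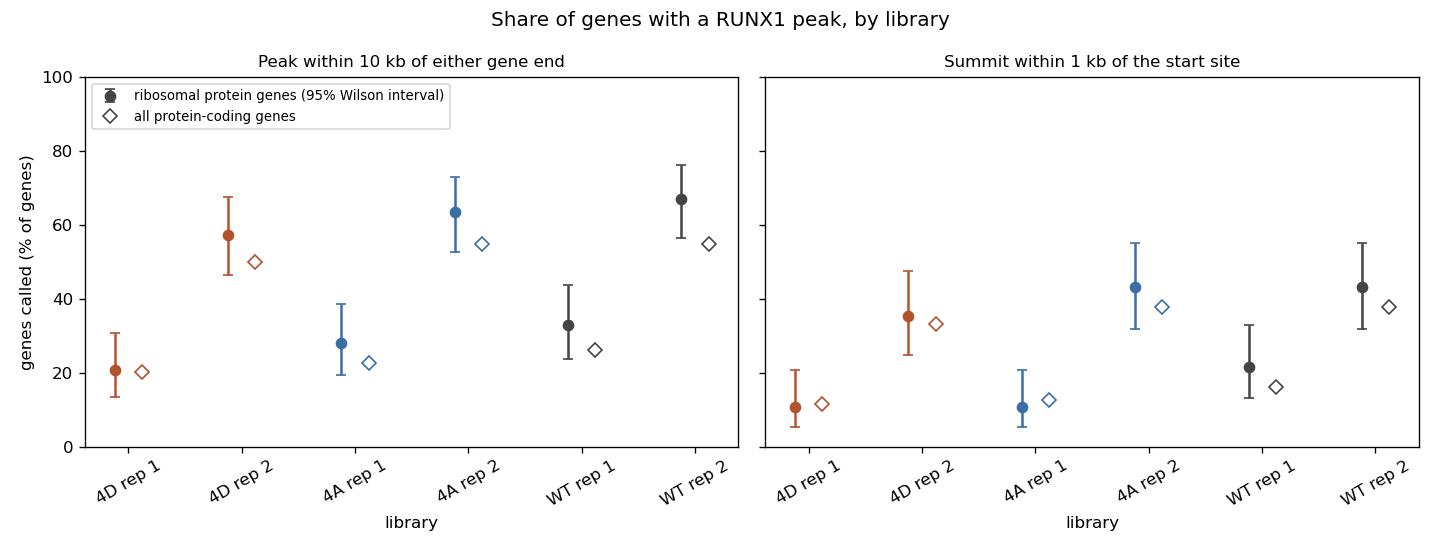
Percentage of genes called in each of the 6 libraries (x axis), for a peak within 10 kb of either gene end (left panel) and a summit within 1 kb of the start site (right panel). Filled points are ribosomal protein genes with 95% Wilson intervals (n = 82 left, 65 right) and open diamonds are all protein-coding genes; replicate 2 lies above replicate 1 in every line.

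A region was counted for a line when both of its replicates had a peak there. By this rule 16 genes were called in 4D, 22 in 4A and 25 in WT, which are 19.5%, 26.8% and 30.5% of the 82 genes. Of all protein-coding genes 19.7%, 22% and 25.7% were called in 4D, 4A and WT, so that the ribosomal protein genes lay close to them. A region present in all 6 libraries lay near 12 of the 82 genes, or 14.6%, the same as the 14.6% of all genes. No library had a peak near 19 of the 82 genes, or 23.2%, whereas 38.1% of all genes had none.

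The 19 genes without a peak encode proteins of both subunits. For the small subunit they included RPS4X, RPS12, RPS13, RPS15, RPS15A, RPS20, RPS23, RPS27 and RPS27A. For the large subunit they were RPL5, RPL6, RPL9, RPL23, RPL34, RPL36A, RPL37A and RPL39, and RPL10L, a paralog of RPL10 expressed in testis, completed the set. The 10 kb limit passed between RPL13, whose nearest region was 7.309 kb from the gene end, and RPS15A, whose nearest region, called in all 6 libraries, lay at 10.823 kb. RPS2 lay inside the limit at 6.701 kb and RPS27 outside it at 13.136 kb.

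By role, 8 of 43 large-subunit genes were called in 4D, 10 in 4A and 12 in WT. Of 31 small-subunit genes, 6 were called in 4D, 8 in 4A and 8 in WT. The shares of both subunits were close to each other, and 6 large-subunit and 4 small-subunit genes had a region in all 6 libraries. The 3 stalk genes, whose proteins recruit elongation factors to the ribosome, had 0 calls in 4D, 2 in 4A and 2 in WT; the calls were RPLP0 and RPLP2. Of the 5 paralogs whose symbol ends in L, which replace a standard protein or stand beside it in some tissues, RPL3L and RPL36AL were called in all 3 lines and RPL39L in WT only.

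Across the 63 genes with a peak there were 113 distinct regions, and most were seen in few libraries. There were 33 regions in 1 library, 26 in 2, 18 in 3, 9 in 4, 13 in 5 and 14 in all 6. Over the whole series, 3295 of 33478 regions were called in all 6 libraries. All 13 regions called in 5 libraries were missing from a replicate 1 list, 8 from that of 4D and 5 from that of 4A. None of them was missing from a list of WT or from a replicate 2 list. One pair of neighbouring genes shared 3 regions, which were counted for both.

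**Figure D2:**
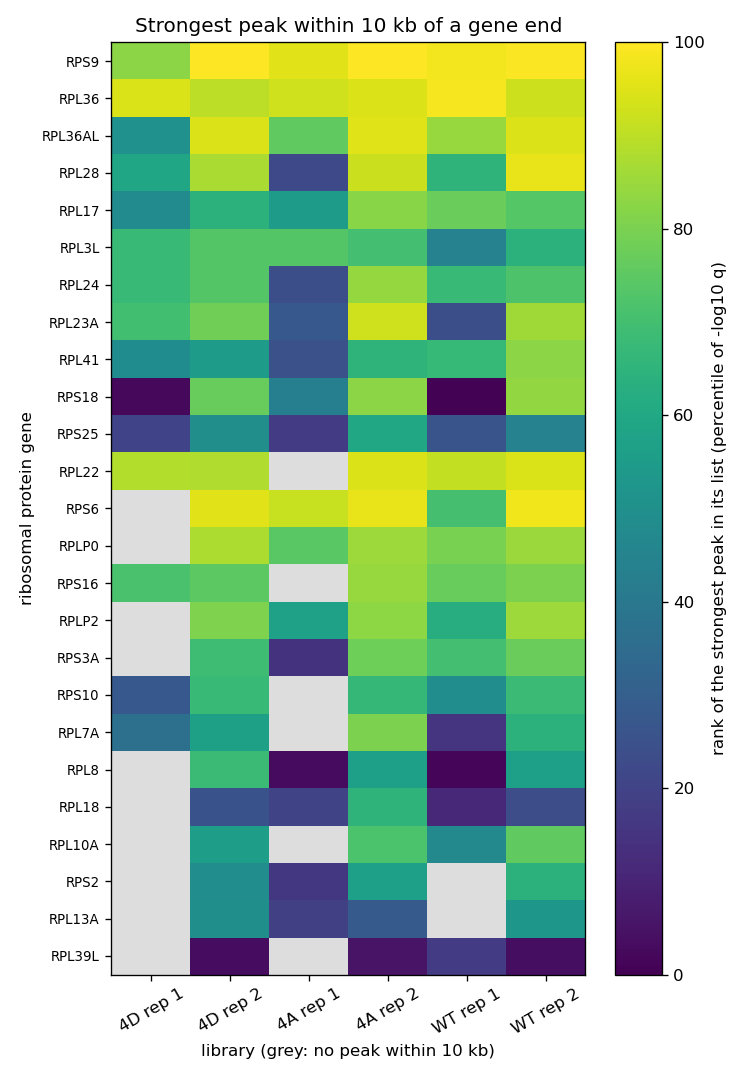
Peaks at 25 of the 28 ribosomal protein genes called in at least 1 line, one row per gene and one column per library, with 4D left, 4A in the middle and WT right. Colour gives the percentile rank of the strongest peak's −log10 q within its own list and grey cells have no peak within 10 kb; the grey cells lie in the replicate 1 columns, and the upper 11 genes have a region called in all 6 libraries.

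Of the 14 regions in all 6 libraries, 12 lay within 1 kb of the start site of another gene. The same share over the 3295 regions of the series called in all 6 libraries was not counted, so it is not known whether 12 of 14 is unusual. The region of highest mean rank over the 6 lists was at RPS9, a small-subunit gene, 94 bp beyond its 3′ end at chr19:54207741-54208960 (hg38). That region had a fold enrichment of 8.98 and 24.4 in the 4D libraries (replicates 1 and 2), 13.1 and 26.6 in 4A, and 18.2 and 24.8 in WT. Its −log10 q was 16.8 and 167 in 4D, 39.6 and 239 in 4A, and 65.7 and 163 in WT, which placed it between percentiles 82.5 and 99.9 of the 6 lists. Enrichment, q and rank are the authors' values and are compared only within a list. A further RPS9 region, 3.10 kb beyond the same end at chr19:54210747-54211184, had −log10 q of 16.9 and 56.2 in 4D, 21.2 and 79.1 in 4A, and 32.0 and 79.6 in WT. These 2 regions were the only ones of the 14 with neither the start site of their ribosomal protein gene nor that of another gene within 1 kb, among those whose own start site is in the table.

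At RPL36, a large-subunit gene, the region common to all libraries lay 9.24 kb upstream at chr19:5680139-5681054 and 128 bp from the start site of MICOS13, the promoter printed above. Its −log10 q was 29.1 and 44.1 in 4D, 32.7 and 64.9 in 4A, and 76.3 and 53.0 in WT, so it outranked the first RPS9 region in replicate 1 of 4D and of WT. The strongest summit, that of replicate 1 of WT (position 5680644), lay 1 bp from the middle of the TGCGGT core of that promoter. The summits of the other libraries lay away from it, between positions 5680585 and 5680610. RPL36AL, a paralog of RPL36A, had its region at chr14:49620358-49621542, over a start site that it shares with MGAT2, a glycosylation enzyme. There −log10 q was 7.85 and 62.0 in 4D, 16.3 and 69.6 in 4A, and 26.9 and 63.9 in WT. The 250 bases shown for RPL36AL held neither a RUNX core nor the exact ETS core CCGGAAG, although they held cttccgc, which has GGAA on the other strand.

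RPS18 and RPS25, both of the small subunit, also shared their start region with a gene on the other strand. At RPS18 the neighbour was VPS52, a vesicle tethering gene, and −log10 q was 1.57 and 23.1 in 4D, 7.54 and 30.2 in 4A, and 1.66 and 32.0 in WT. Its 2 lowest values lay near the authors' threshold. At RPS25 the neighbour was TRAPPC4, and this was the region of lowest mean rank of the 14, with a fold enrichment of 4.19 and 3.98 in 4D, 3.84 and 3.86 in 4A, and 4.48 and 4.28 in WT. RPL36AL, RPS18 and RPS25 were the only genes of the 65 with a summit within 1 kb of the start in all 6 libraries, which is 4.62%, against 8.29% of all genes. At each of the 3, the start of the other gene lay nearer to the strongest summit than that of the ribosomal protein gene.

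Other regions of this kind also lay at the starts of other genes. RPL41, which encodes the smallest ribosomal protein, had its region at its 3′ end, 194 bp from the start of ZC3H10. RPL17 had its region 31 bp from the start of C18orf32, RPL28 at UBE2S, RPL24 at LOC124906262, RPL3L at MSRB1 and RPL23A at PROCA1 and NEK8. In RPL23A the PROCA1 region had −log10 q of 11.8 and 24.6 in 4D, 5.29 and 55.9 in 4A, and 1.66 and 35.0 in WT, so its rank was low in replicate 1 of WT. The summit of that weak peak lay apart, at position 28712293, against 28711458 to 28711500 in the other libraries, and merging joined them into 1 region. Of the 14 regions, 5 had a ribosomal protein gene as the gene with the nearest end.

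**Figure D3:**
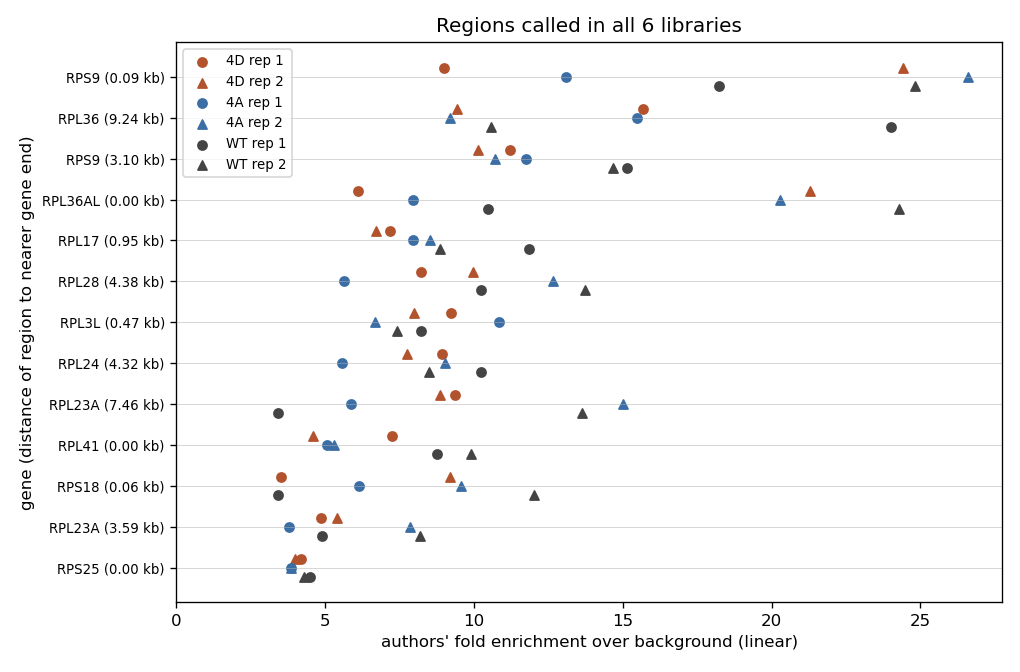
Authors' fold enrichment over background (x axis, linear) of 13 of the 14 regions called in all 6 libraries near ribosomal protein genes, one row per region with its distance in kb to the nearer gene end. Colours give the line and symbols the replicate; RPS9 reaches 26.6 in replicate 2 of 4A, and RPS25 stays between 3.84 and 4.48.

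At their own start sites, ribosomal protein genes had summits more often on the upstream side than downstream, as all genes did. A summit within 1 kb of the start was found at 7 and 23 of 65 genes in 4D, 7 and 28 in 4A, and 14 and 28 in WT. Of all 15842 genes with a start site these were 11.5% and 33.3% in 4D, 12.5% and 37.9% in 4A, and 16.1% and 37.8% in WT, and the ribosomal protein genes, at 10.8% and 35.4%, 10.8% and 43.1%, and 21.5% and 43.1%, were near them. An exact permutation test over the 3 lines gave p = 0.867. Both replicates had the summit at 7 genes in 4D, 7 in 4A and 12 in WT, or 10.8%, 10.8% and 18.5%, against 11.2%, 12.2% and 15.6% of all genes.

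The summits are described by their side of the start site, with no test. In replicate 2, the kilobase before the start held a summit at 32.3% of the 65 genes in 4D, 40.0% in 4A and 36.9% in WT, against 21.3%, 24.4% and 24.2% of all genes. The kilobase after the start held one at 3.08% in 4D, 4.62% in 4A and 7.69% in WT, against 13.4%, 15.2% and 15.6% of all genes. In replicate 1, the kilobase before the start held one at 10.8% in 4D, 10.8% in 4A and 21.5% in WT, against 8.24%, 8.28% and 10.8% of all genes. The kilobase after it held 0 summits at the 65 genes in each line, against 3.53%, 4.47% and 5.54% of all genes. All 6 libraries thus had a higher share upstream and a lower share downstream than all genes. Ribosomal protein genes were also shorter, with a median length of 5.01 kb against 24.1 kb, and the part of gene length in this pattern was not tested.

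**Figure D4:**
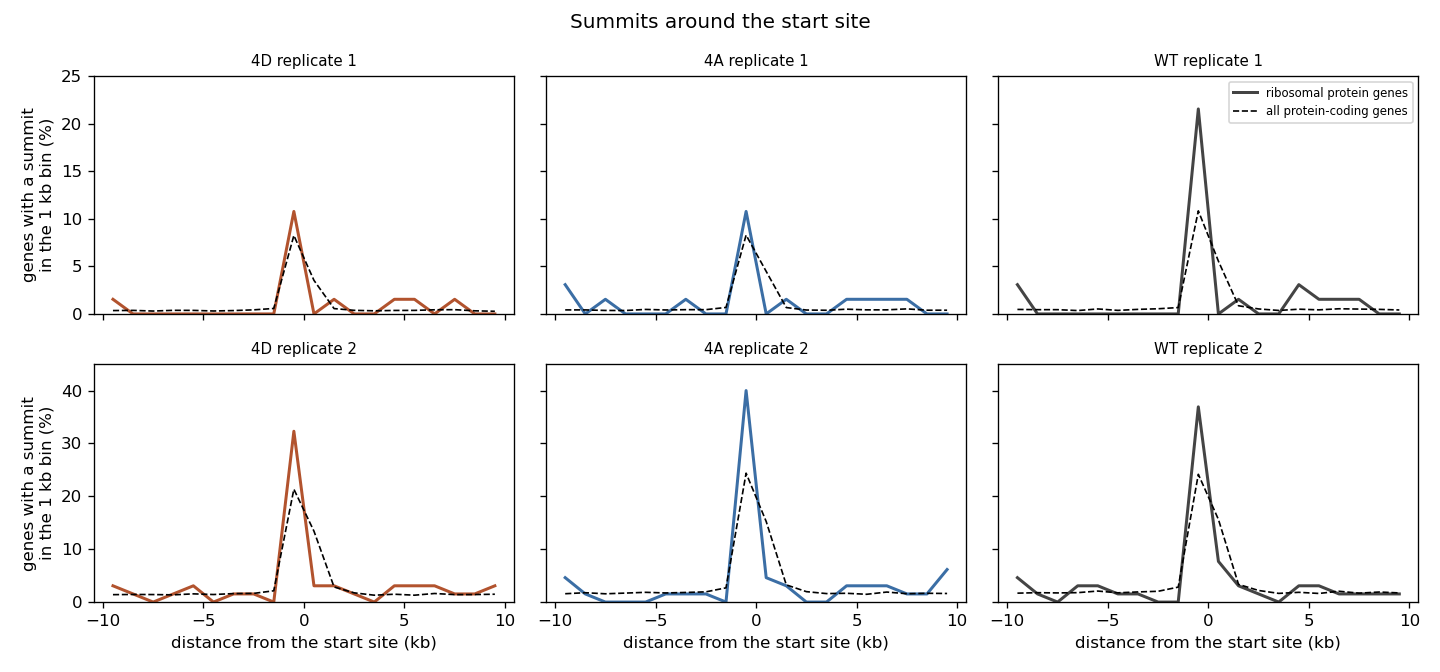
Percentage of genes with a peak summit in each 1 kb bin (y axis) by distance from the start site in kb (x axis, negative upstream), one panel per library with 4D left and WT right. Solid lines are the 65 ribosomal protein genes with a start site and dashed lines all protein-coding genes; the bin before the start reaches 40.0% in replicate 2 of 4A against 24.4% of all genes, and the bin after it stays at or below 7.69% in every library.

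Among start regions called in 5 libraries, those of RPS6 and RPL22 ranked highest. RPS6 encodes the small-subunit protein phosphorylated by S6 kinases. Its region was missing in replicate 1 of 4D and had −log10 q of 67.4 in replicate 2 of 4D, 30.1 and 80.8 in 4A, and 17.2 and 97.1 in WT. The summit lay 146 bp upstream and 45 bp from the ETS core printed for RPS6. RPL22, a large-subunit gene whose protein is dispensable for general translation in mice, had −log10 q of 21.2 and 39.1 in 4D, 66.5 in replicate 2 of 4A only, and 35.0 and 61.1 in WT, with the summit 52 bp upstream.

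RPS3A, RPS10, RPS16, RPL7A, RPL18 and RPLP2 were the other genes with a start region in 5 libraries. At RPS3A the region was missing in replicate 1 of 4D, and −log10 q was 17.7 in replicate 2 of 4D, 3.52 and 24.5 in 4A, and 16.9 and 24.4 in WT. Its strongest summit lay 47 bp from the nearer of the 2 RUNX cores of the printed promoter. At RPL18 the region was likewise missing in replicate 1 of 4D, with 5.15 in replicate 2 of 4D, 4.31 and 15.5 in 4A, and 3.79 and 5.01 in WT. The strongest summit, that of replicate 2 of 4A (position 48619242), lay 37 bp from the RUNX core and 264 bp from the start of SPHK2. The summits of the other libraries lay further from the core and nearer to SPHK2, between positions 48619333 and 48619453. RPL11, whose protein binds MDM2 when ribosome assembly is disturbed, was called at its start in the replicate 2 lists alone, at 1.46 in 4D, 7.76 in 4A and 9.93 in WT, 12 bp from the RUNX core. RPS18 had its strongest summit 133 bp from its RUNX core, which is separated by 1 base from an ETS core.

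Motifs were counted on both strands of the 300-base promoter windows. The ETS core CCGGAAG was found in 22 of 65 promoters (33.8%), against 14.2% of all 15842 promoters. It was in 12 of 19 promoters (63.2%) with a start summit in 3 to 6 libraries, 6 of 17 (35.3%) with 1 or 2, and 4 of 29 (13.8%) with none. Over all genes the shares were 20.0%, 21.0% and 9.18% in the same order. The RUNX core TGTGGT was in 12 of 65 promoters (18.5%), against 11.0% of all promoters, and in 6 of 19, 3 of 17 and 3 of 29 promoters of the same classes, or 31.6%, 17.6% and 10.3%. Over all genes those shares were 10.5%, 8.20% and 12.1%. These shares were not tested, and a match describes the letters of the window only.

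The other RUNX core, TGCGGT, was in 5 of 65 promoters (7.69%), against 8.72% of all, and its order over the classes differed from that of TGTGGT. It was in 1 of 19, 3 of 17 and 1 of 29 promoters, or 5.26%, 17.6% and 3.45%, whereas over all genes it was in 14.5%, 9.79% and 5.30%. Either RUNX core was in 36.8%, 35.3% and 13.8% of the ribosomal protein promoters of these classes, against 23.6%, 17.3% and 16.8% of all promoters, so the comparison depends on which core is counted. The GATA core AGATAA was in 3 (4.62%), against 7.66%, the MYC core CACGTG in 3 (4.62%), against 8.82%, and the GC box GGGCGG in 37 (56.9%), against 58.3%. None of the motifs contains another. As a check of the start sites, 42 of 65 windows (64.6%) had a C at the start followed by 4 pyrimidines, against 4.59% of all windows.

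**Figure D5:**
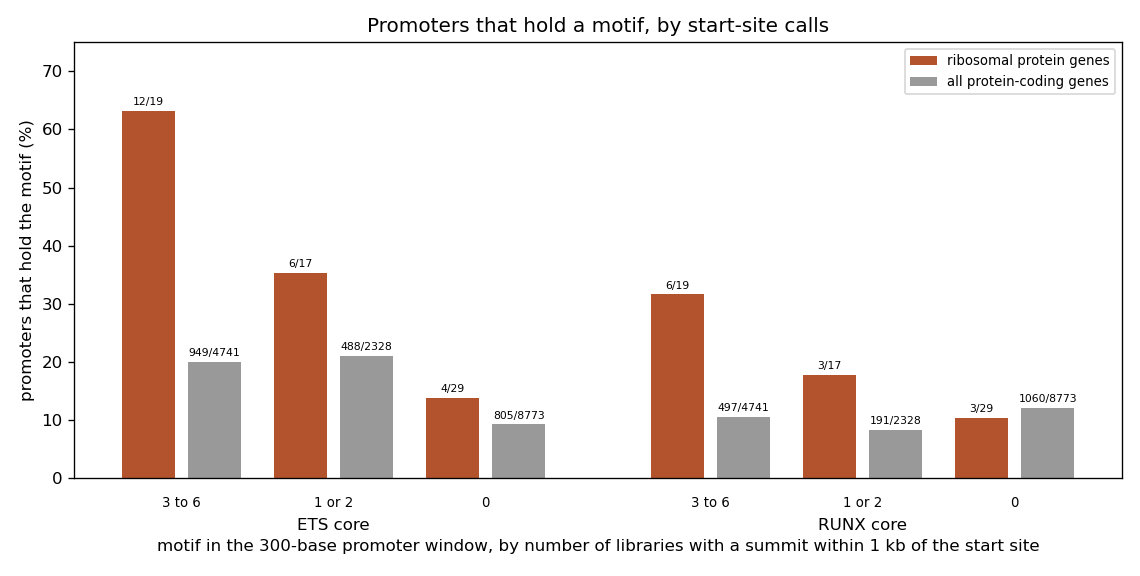
Percentage of promoters (y axis) that hold the ETS core or the RUNX core TGTGGT, grouped by the number of libraries with a summit within 1 kb of the start site (3 to 6, 1 or 2, and 0). Brown bars are ribosomal protein genes and grey bars all protein-coding genes, with counts above the bars; the ETS core was in 63.2% of the ribosomal protein promoters called in 3 to 6 libraries, against 20.0% of all such promoters.

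Between the lines, no ribosomal protein gene had a peak in both replicates of one and in no replicate of the other. This count was 0 of 82 for 4D and not WT, against 0.0449% of all genes, and 0 for WT and not 4D, against 0.374%. It was also 0 for 4A and not WT (0.16% of all genes), WT and not 4A (0.115%), 4D and not 4A (0.0848%) and 4A and not 4D (0.349%). With such low shares among all genes, a count of 0 in 82 genes is near the background. With 2 libraries against 2, no test of a single gene was made.

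All 16 genes of the 4D set were also in the WT set, where they were 64% of 25 genes. Over all genes 88.9% of the 4D set and 68.2% of the WT set were shared. The 9 genes in the WT set but not the 4D set included RPL39L, RPS3A, RPL10A, RPL8, RPS6, RPLP2, RPLP0 and RPL18, and every one of the 9 had a peak in replicate 2 of 4D. Over all genes, 1559 of the 1641 in the WT set but not the 4D set had one. The 4A and WT sets shared 19 genes, which were 86.4% of the 4A set and 76% of the WT set, against 85.2% and 72.7% over all genes. The 3 genes in the 4A set and not the WT set included RPS2 and RPL13A, and RPL22, RPL39L, RPS10, RPL10A, RPL7A and RPS16 were in the WT set and not the 4A set. The 4D and 4A sets shared 12 genes, with 4 in the 4D set only and 10 in the 4A set only. These 12 were 75% of the 4D set and 54.5% of the 4A set, against 80.0% and 71.8% over all genes. In each of these pairs, the genes absent from a line's set had a peak in its replicate 2, so the sets parted on replicate 1 lists. Most genes of the whole table did the same. Such a peak was found for 623 of 652 genes in 4A and not WT, and 1373 of 1405 in WT and not 4A. It was also found for 769 of 789 in 4D and not 4A, and 1169 of 1239 in 4A and not 4D.

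Of the 19 genes of the Diamond-Blackfan list, those in the set of a line were RPS10 in 4D, RPL18 in 4A, and RPS10 and RPL18 in WT. These are 1, 1 and 2 of 19 genes, where 19.7%, 22% and 25.7% of all genes were called, and none had a region in all 6 libraries. The difference was not tested. In single libraries, 1 and 9 of the 19 genes had a peak in 4D (replicates 1 and 2), 2 and 11 in 4A, and 3 and 11 in WT, where all genes stood at 20.1% and 50.1%, 22.5% and 54.8%, and 26.2% and 54.9%. RPS10 had its summit 74 bp upstream of the start, with −log10 q of 4.68 and 16.8 in 4D, 16.3 in replicate 2 of 4A only, and 10.4 and 17.8 in WT. RPS19, the gene most often mutated in this disease, had a region 362 bp upstream in 3 libraries, at 3.11 in replicate 2 of 4D, 6.48 in replicate 2 of 4A, and 5.32 in replicate 1 of WT. A second RPS19 region lay 9.93 kb beyond the gene end and 157 bp from the start of ARHGEF1. It was in replicate 2 of 4A (3.79) and replicate 2 of WT (6.97), so no RPS19 region was in both replicates of WT. No library had a peak near 4 genes of this list, among them RPS15A, RPS27 and RPL5.

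Peaks at ribosomal protein genes ranked near the middle of their lists in most libraries. The strongest peak of each called gene had a median percentile of −log10 q of 58.4 and 55.4 in 4D, against 55.1 and 61.8 for all called genes. It was 24.7 and 59.4 in 4A, against 54.1 and 64.3, and 49.2 and 58.9 in WT, against 55.4 and 65.5. The median was thus lower than that of all called genes in 5 of the 6 libraries, and replicate 1 of 4A, with 23 called genes, stood lowest.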

How the data were processed

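HA-tagged RUNX1 CUT&RUN was analysed in 6 libraries of HEL cells, 2 each of 4D, 4A and WT. Per the submitters' processing notes, the build was hg38 and the tools were MACS2 2.2.7.1, Bowtie2 2.4.2, cutadapt 3.4, deepTools 3.5.1 and Picard 2.25.6; read filters and the pooling of the empty vector libraries are not given in the sources used here. In the deposited lists, 1 per library, every peak has a summit offset, a score, a linear fold enrichment (a ratio) and its p-value and q-value as −log10. Lists held 5358 to 25911 peaks on chromosomes 1 to 22, X and Y, and read depth is unknown.

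From these lists, peaks that overlapped by at least 1 bp were merged across libraries into 33478 regions, with Python 3.11.15, pandas 2.3.3, numpy 2.4.6 and scipy 1.17.1 (figures with matplotlib 3.10.9). Gene ends came from a RefSeq table and start sites from the RefSeq promoter table, both GRCh38.p14. A region counted for a gene within 10 kb of either end, and a summit for a start site within 1 kb. Counting was tested on simulated data.

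Counts of genes per library were compared over the lines with an exact permutation test of the between-line sum of squares of log counts. Replicate number served as the block. Over all genes, deviations of same-numbered libraries from their line means were correlated, at 0.480 (4D and 4A), 0.498 (4D and WT) and 0.520 (4A and WT). Among the ribosomal protein genes the correlations were 0.114, 0.326 and 0.248 in the same order. Every replicate 1 list was shorter than its replicate 2 list, so these correlations cannot show whether the libraries were paired. The replicates are biological per the series design. Named genes were those whose nearest region was in all 6 libraries, directed genes, called Diamond-Blackfan genes and genes without a peak; RPS9, RPL36, RPL28 and RPL23A, whose common region was not the nearest, and the genes with start regions in 5 or fewer libraries were named after their values were seen. A few genes are counted but not reported by name here. The members, the gene lists and the start-site counts were chosen with earlier results of these data known. Alternatives were other distances, thresholds, list lengths, replicates and overlap rules.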

Additional observations from a re-analysis of the deposited data

How the results depend on the processing

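The replicate left out mattered most: without replicate 1 or without replicate 2, the called genes numbered 17 to 47 in 4D, 23 to 52 in 4A and 27 to 55 in WT, and start-site genes 7 to 23, 7 to 28 and 14 to 28. With all lists shortened to one length, 9 genes were called in 4D, 11 in 4A and 10 in WT (11.0%, 13.4% and 12.2%, against 12.3%, 13.2% and 13.5% of all genes), and 4, 4 and 5 at start sites. With lists shortened within each replicate number, a setting chosen after seeing the data, 16 genes were called in 4D, 20 in 4A and 19 in WT (19.5%, 24.4% and 23.2%, against 19.7%, 19.4% and 21.1% of all genes). In replicate 2 alone 4D then had the most genes (47, or 57.3%, against 50.1% of all genes) and WT the fewest (43, or 52.4%, against 49.5%). With −log10 q of at least 5, 11 genes were called in 4A (13.4%, now below the 16.9% of all genes), 4 start-site genes in 4D and 4 in 4A, and 1 gene, RPS19, was in WT and not 4D. The WT peaks of RPS19 were in different regions, at the start in replicate 1 and 9.93 kb beyond the gene end in replicate 2. Shares of all genes for the start-site counts at these list lengths and this threshold are not given here. In the replicate block, with lines permuted within replicate numbers, the exact permutation test gave p = 0.167, the smallest it allows, against 0.667 without it; neither form can reach 0.05, so it says nothing about stability. For the start-site counts the exact permutation test with the block gave p = 0.667, the smallest value it allows. The remaining alternatives, including a 2 kb distance, summits within 250 bp and added numbered paralogs, left each count within 1.5 times its main value. At 2 kb the called shares were 13.4% in 4D, 18.3% in 4A and 24.4% in WT. Of all genes 13.2%, 14.7% and 18.1% were called at that distance, so the share in WT stood further above its background there. Unequal list lengths and unknown depth limit every count.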

Other observations

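Genes that work with the ribosomal proteins were counted by the same rule. Of 35 ribosome assembly genes, which process ribosomal RNA and build the subunits, 7 were called in 4D, 7 in 4A and 7 in WT, and GNL3, BYSL and RRS1 had a region in all 6 libraries. Of 18 genes of translation factors and related messenger RNAs with a pyrimidine tract, 3 were called in 4D, 4 in 4A and 5 in WT. Among them PABPC1, the poly(A) binding protein, and HNRNPA1, an RNA binding protein, had a region in all 6 libraries. Of 15 genes of growth signalling to the ribosome, such as the kinase MTOR, 0 were called in 4D, 1 in 4A and 4 in WT. Of all protein-coding genes 19.7% were called in 4D, 22% in 4A and 25.7% in WT, and 14.6% had a region in all 6 libraries.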
